A study of Mus musculus with 56 samples.

Results

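The 9 genes described here encode proteins that build, store and break down glycogen in skeletal muscle: Gys1, Gyg, Gbe1 and Ugp2 on the synthesis side, Pygm, Phkb and Phkg1 on the breakdown side, and Ppp1r3a and Ppp1r3c, which bring protein phosphatase 1 to the glycogen particle. They were chosen by name from the pathway, with earlier results of these data known, so their counts of calls are a description. All 9 were found among the 15539 genes of the count table and passed the filter on low counts that left 14321 genes for testing. RNA was sequenced from the gastrocnemius, a calf muscle, of 56 C57Bl/6 mice on a chow diet. They formed 8 groups of 7, by sex, by genotype label and by whether the cage wheel could turn. The male groups were MC (controls, locked wheel), MCE (controls, running wheel), MH (labelled HuR m-/-, locked wheel) and MHE (labelled HuR m-/-, running wheel), and the female groups were FC, FCE, FH and FHE in the same order. Controls were littermates with the floxed Elavl1 alleles and no Cre, and in mice labelled HuR m-/- a Cre driven by the Mlc1f promoter, which is active in skeletal muscle fibres, was meant to remove Elavl1, the gene of the RNA-binding protein HuR. Other cells of the muscle would then keep the gene. Per the labels the mice were 5 months old and wheels were given from 10 to 20 weeks of age, running or locked for the same period.

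Glycogen is the glucose store that a muscle fibre draws on when it contracts. Ugp2 makes UDP-glucose, glycogenin (Gyg) primes a new particle with a short glucose chain, glycogen synthase (Gys1) lengthens the chains and the branching enzyme (Gbe1) adds branches. Muscle glycogen phosphorylase (Pygm) releases glucose 1-phosphate from the chain ends after it is phosphorylated by phosphorylase kinase, whose catalytic subunit in muscle is Phkg1 and whose beta regulatory subunit is Phkb. Protein phosphatase 1, held at the particle by Ppp1r3a (the subunit of striated muscle) or Ppp1r3c (also called PTG), does the opposite: it activates the synthase and inactivates phosphorylase and its kinase.

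On GRCm38, the synthesis genes lie at chr7:45434844-45456619 on the plus strand (Gys1), chr3:20122084-20155317 on the minus strand (Gyg), chr16:70313949-70569716 on the plus strand (Gbe1) and chr11:21321138-21371201 on the minus strand (Ugp2). The breakdown genes lie at chr19:6384399-6398459 (Pygm, plus), chr8:85840959-86061376 (Phkb, plus) and chr5:129863421-129898549 (Phkg1, minus). The phosphatase subunits lie at chr6:14713977-14755274 (Ppp1r3a, minus) and chr19:36731731-36736653 (Ppp1r3c, minus). Pygm and Ppp1r3c thus share a chromosome, and no pair of members overlaps. Exons of Gys1 overlap those of Ruvbl2 on the opposite strand over 310 bases, and exons of Phkg1 overlap those of Sumf2 on the opposite strand over 630 bases. Gm42790, a short transcript at chr5:129875979-129876947 on the same strand, lies inside the span of Phkg1 without sharing an exon with it. Whether strand was used in counting is not given in the sources used here, so reads in these overlaps cannot be assigned to 1 gene with certainty.

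The 250 bases before the RefSeq start are shown for 4 members with changes given below, so that the sequence next to each start can be read beside its values. They are Phkg1, Gys1 and Ppp1r3c for the wheel and Pygm for sex. The window of Phkb, which differed most by sex on average, is not shown. All are on GRCm38.p6 and run 5′ to 3′ on the strand of the gene. They are Phkg1 from chr5:129879089-129879338 (minus), Gys1 from chr7:45434589-45434838 (plus), Ppp1r3c from chr19:36736605-36736854 (minus) and Pygm from chr19:6384158-6384407 (plus). The RefSeq start of Phkg1 lies inside its annotated span given above, between Chchd2 and Gm42790. Capitals mark matches, on either strand, to any of 4 motifs searched: the E-boxes CACGTG (bound by factors such as USF) and CAGCTG (bound by the MyoD family), the nuclear receptor element AAGGTCA, and the MEF2 motif.
Phkg1: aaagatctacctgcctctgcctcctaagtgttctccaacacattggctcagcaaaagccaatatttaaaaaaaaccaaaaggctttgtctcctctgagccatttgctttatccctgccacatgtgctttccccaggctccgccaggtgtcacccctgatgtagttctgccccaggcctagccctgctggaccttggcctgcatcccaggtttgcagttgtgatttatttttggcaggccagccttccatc
Gys1: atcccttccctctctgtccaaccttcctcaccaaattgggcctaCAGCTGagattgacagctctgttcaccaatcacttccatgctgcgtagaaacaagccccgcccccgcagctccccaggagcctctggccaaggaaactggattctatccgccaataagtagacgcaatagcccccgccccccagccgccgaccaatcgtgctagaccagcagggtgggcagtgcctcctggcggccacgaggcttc
Ppp1r3c: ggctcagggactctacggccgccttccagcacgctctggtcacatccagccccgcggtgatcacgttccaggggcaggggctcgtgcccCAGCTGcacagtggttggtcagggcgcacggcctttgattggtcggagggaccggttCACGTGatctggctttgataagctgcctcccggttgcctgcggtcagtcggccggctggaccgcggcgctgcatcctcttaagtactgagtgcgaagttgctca
Pygm: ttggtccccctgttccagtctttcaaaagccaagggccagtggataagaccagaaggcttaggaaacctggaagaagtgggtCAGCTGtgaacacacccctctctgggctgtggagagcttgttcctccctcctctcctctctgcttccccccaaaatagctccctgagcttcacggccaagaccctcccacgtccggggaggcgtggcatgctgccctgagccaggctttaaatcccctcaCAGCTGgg

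All 9 members had an entry in the RefSeq promoter table, with 10 entries in all because Ugp2 has 2. The E-box CAGCTG was found 168 to 163 and again 8 to 3 bases before the start of Pygm, 206 to 201 bases before Gys1, 161 to 156 bases before Ppp1r3c, 14 to 9 bases before Ppp1r3a and 131 to 126 bases before the second start of Ugp2. It is held by 13% of the 32851 windows of this length in the table. The other E-box, CACGTG, held by 6.02% of all windows, was found in Ppp1r3c alone among the members, 104 to 99 bases before the start. The MEF2 motif, held by 2.92%, was found in Ppp1r3a alone, 100 to 91 bases before the start, and the element AAGGTCA, held by 4.08%, in none of the 10 windows. The windows of Phkg1, Gyg, Gbe1 and Phkb held no match to these letters. The GC content of the 10 windows ran from 40.4% in Ppp1r3a to 73.6% in the second window of Ugp2, beside a median of 52.4% over all windows. A match describes the sequence and is not a measured site.

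Total counts per mouse ran from 6639782 to 21633091, and each member had at least 345 counts in every mouse (Gbe1 had the fewest). The muscle markers, summed, took 86268.9 to 124990 CPM (counts scaled to 1e+06 per library, after TMM normalization) in each library, so the labelled tissue was present. The median Elavl1 level was 54.0 CPM in MC and 50.5 in MH, and 44.5 in FC and 47.9 in FH. Averaged over sex and wheel, Elavl1 was 0.13 higher on the log2 scale in labelled mice (SE 0.058, adjusted p = 0.15), and in running males it was 0.44 higher (SE 0.11, adjusted p = 0.0242). Elavl1 RNA was thus not called lower in any pair, so the loss given by the label was not seen in these counts. A whole-muscle count per gene includes other cells, which would keep the gene, and does not decide whether the fibres lost it. The paper reports lower Elavl1 by qPCR in HuR m-/- gastrocnemius. Myl1, the gene of the Mlc1f promoter, had a median of 11261 CPM in MC, 6417 in MH, 11145 in MCE and 5776 in MHE. In females it was 9679 in FC, 5475 in FH, 9467 in FCE and 5021 in FHE. Some labelled mice reached control levels, with locked wheels (up to 13731 in MH and 13360 in FH) and with running wheels. The highest MHE mouse had 10816, beside 10294 to 13611 in MCE. The highest FHE mouse had 8477, beside 7507 to 10346 in FCE. Whether each mouse lacked Elavl1 in its fibres was not tested, so every direction drawn from the label below rests on the label. A count per gene does not show which exons were read. MH 9 had the lowest median correlation with the rest of its group (0.93), and FC 15 and FH 19 held the most liver marker RNA. MH 24 (0.94) was left out with them in an alternative chosen after seeing the data, although FCE 27, FC 15 and FH 34 had lower correlations. Leaving out MH 9, MH 24, FC 15 and FH 19 moved the count of members called by over 1.5 times for the label average alone, where it is given.

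The level of each member in all 56 mice is shown by group in the plot of CPM by mouse, where the middle of 3 values given for a group below is always its median. Levels are compared between groups and not between genes, because the labels give a 3′ kit and the methods a total RNA kit, and gene length enters the counts in a different way in each. Ugp2 was the steadiest member, with 375 CPM in the lowest mouse and 633 in the highest, and its group means spanned 0.17 on the log2 scale. Gys1 had the widest spread of group means, 0.80 on the log2 scale from FC to MCE, followed by Phkb with 0.69 from FH to MC and Phkg1 with 0.64 from FH to FCE. The group means of the other members spanned 0.53 (Ppp1r3c), 0.52 (Gyg), 0.52 (Pygm), 0.42 (Ppp1r3a) and 0.31 (Gbe1). MC held the highest mean of 5 members, Gyg, Gbe1, Pygm, Phkb and Ppp1r3a, and FC the lowest of 4, Gys1, Gbe1, Pygm and Ppp1r3c. The spread between mice of 1 group had a median within-group SD of 0.20 over the 9 members beside 0.31 over all 14321 genes tested, on the log2 CPM scale. The members lay between percentile 91.2 (Gbe1) and 99.9 (Pygm) of mean level, and their spread was not compared with that of genes at a like level. In whole muscle, fewer cells of a type and less RNA per cell cannot be told apart, which holds for every difference below.

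**Figure D1:**
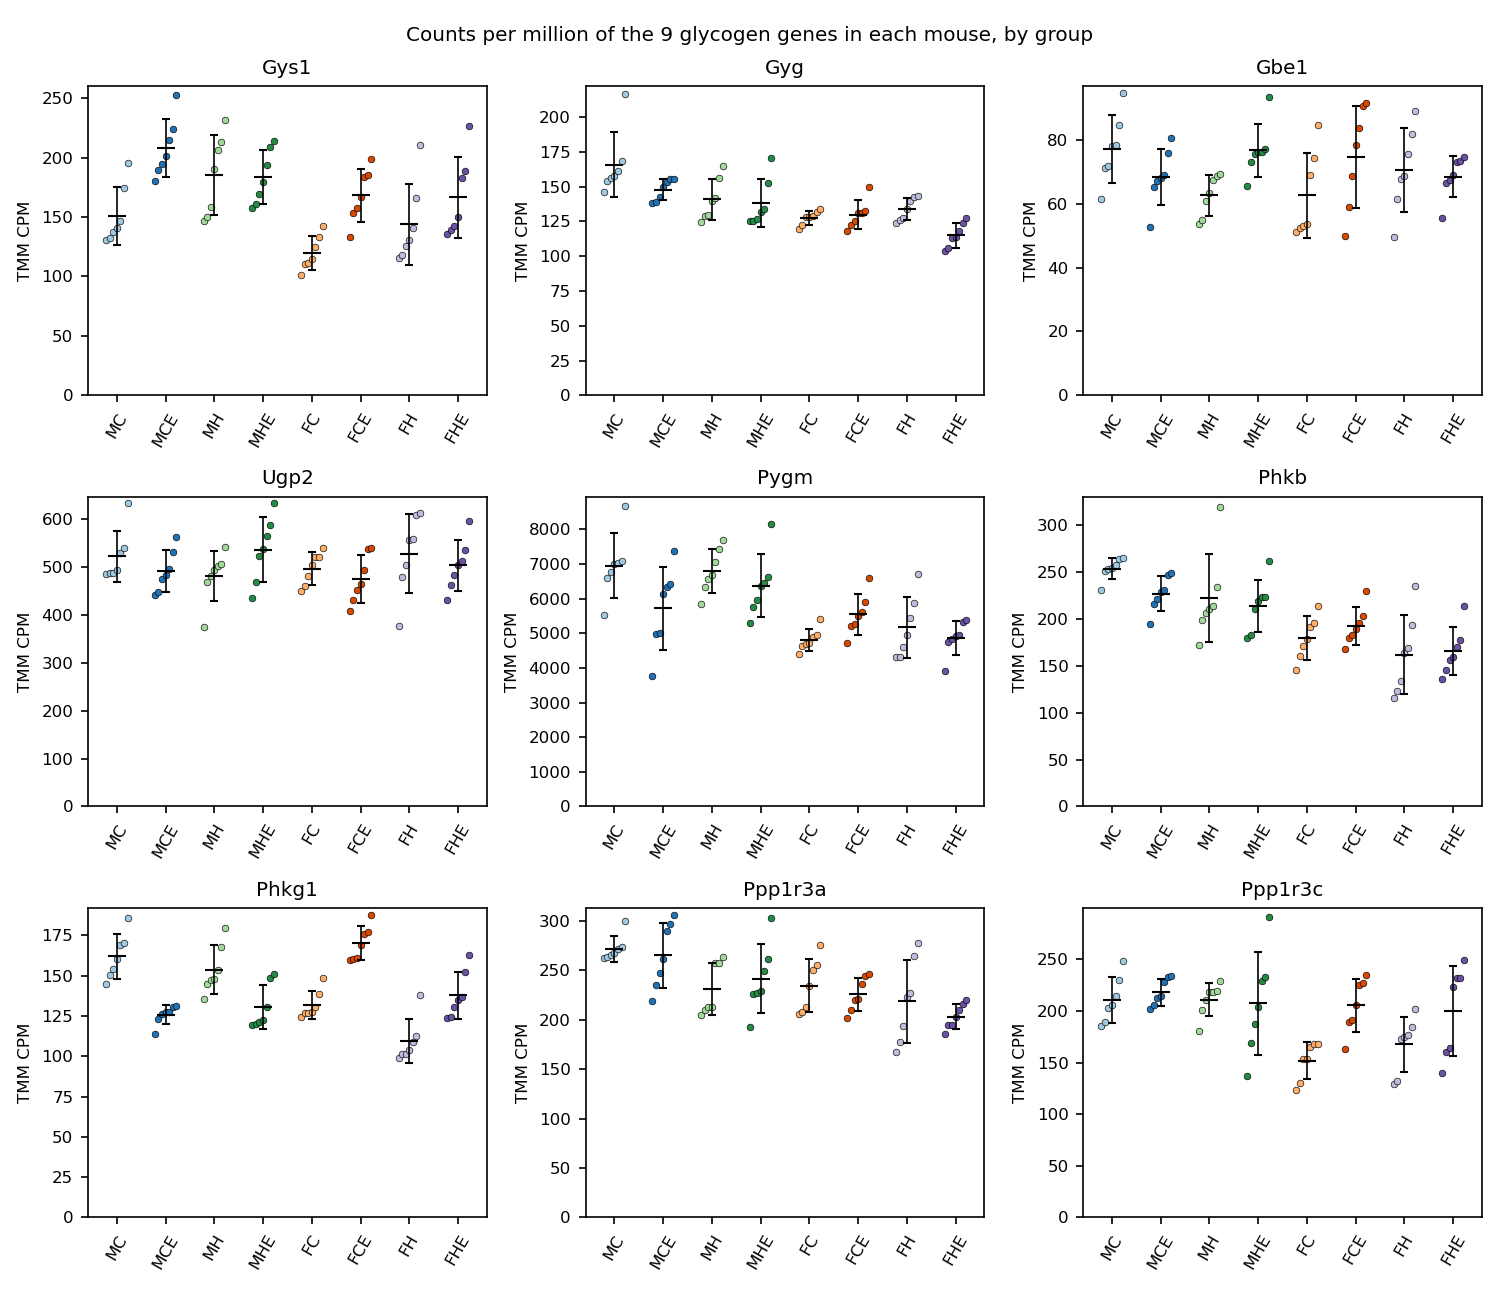
Level of each member in TMM-normalized CPM (linear axis from 0) in each of the 56 mice, in the 8 groups of 7. Points are mice and bars the mean and SD. Phkg1 in FCE sits between 159.6 and 187 CPM, above every mouse of FC (125 to 149) and MCE (114 to 131).

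The first question was how running changed these genes. Averaged over sex and genotype label, running raised Gys1 by 0.29 on the log2 scale (SE 0.059, adjusted p = 0.000869 by voom and limma with Benjamini-Hochberg adjustment, 28 mice on each side). It was the 1 member called, where called means an adjusted p of 0.05 or less, beside 5.96% of all genes tested. The other 8 lay between -0.09 for Gyg (adjusted p = 0.0923) and 0.17 for Ppp1r3c (adjusted p = 0.0613). The average of 0.02 for Phkg1 (adjusted p = 0.769) combined opposite changes in males and females, given below.

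Glycogen synthase Gys1 had 130.3 CPM in the lowest, 141 in the median and 195 in the highest MC mouse, and 180.4, 201 and 253 in MCE. In females it had 101, 115 and 143 CPM in FC and 133, 167 and 198 in FCE. Runners were higher in both control pairs, with an overlap of the highest locked mice and the lowest runners. The log2 fold change was 0.47 in males (SE 0.12, adjusted p = 0.0143) and 0.48 in females (SE 0.12, adjusted p = 0.00759), and the two-sided exact permutation p was 0.00233 and 0.00117. In labelled mice the levels were 146, 190.5 and 232 CPM in MH, 158, 179 and 214 in MHE, 116, 131 and 211 in FH, and 136, 150.02 and 226 in FHE. Locked and running groups overlapped over most of their range. The log2 fold changes of 0.00 (95% interval -0.23 to 0.23, adjusted p = 0.998) and 0.21 (-0.02 to 0.45, adjusted p = 0.346) did not pass. The difference between labelled mice and controls in this wheel change was -0.47 in males (SE 0.16, adjusted p = 0.391) and -0.27 in females (SE 0.17, adjusted p = 0.594), so a difference by label was not shown.

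Gm42418, a transcript that overlaps ribosomal RNA, took a smaller share of the counts in running than in locked male controls, where Gys1 rose, and a larger share in running than in locked female controls, where Gys1 also rose. It took 9.41% to 11.4% of the counts of MC mice and 6.51% to 9.78% of those of MCE mice, but 9.59% to 12.5% in FC and 11.5% to 13.1% in FCE. Within groups, the deviations of Gys1 and of this share had Pearson r = -0.60 and Spearman rho = -0.54 over the 56 mice. With the share as a covariate, an alternative chosen after seeing the data, the wheel change of Gys1 was 0.08 in male controls (adjusted p = 0.895) and 0.63 in female controls (adjusted p = 4.07e-05). The rise in male controls was thus not called with that term. Without MCE 10 it had an adjusted p of 0.0608. In female controls the rise was 0.37 with slow- and fast-fibre marker levels as covariates and 0.43 with liver and adipocyte marker levels, and was called in neither fit.

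Phkg1, the catalytic subunit of phosphorylase kinase, moved in opposite directions in control males and females. It had 145, 161 and 186 CPM (lowest, median, highest) in MC and 114, 127 and 131 in MCE, so that every running male control was below every locked one. In females it had 125, 127 and 149 CPM in FC and 159.6, 169 and 187 in FCE, so that every running female control was above every locked one. The log2 fold changes were -0.36 (SE 0.069, adjusted p = 0.00119) and 0.37 (SE 0.070, adjusted p = 0.000562). Both exact permutation tests gave 0.000583, the smallest p that 7 against 7 mice allow.

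Some library measures and markers also moved in opposite directions in these pairs, and others did not. The muscle marker Mb rose with running in male and in female controls (0.58 and 0.31), as did the fast-fibre marker Myh1 (0.50 and 0.53). Mitochondrial reads took a median of 26.5% of the counts in MC and 29.7% in MCE, but 26.96% in FC and 23.6% in FCE, where the groups did not overlap (25.6% to 29.97% against 20.5% to 24.5%). Of the 12 muscle markers 3 fell and 1 rose in running male controls, and 3 rose and 1 fell in running female controls, with the calcium pump Atp2a1 at -0.34 and 0.29. For wheel by sex in controls 5 of the 12 were called, all with a more positive wheel change in females (Acta1, Ckm, Actn3, Atp2a1 and Ryr1), as were 3 of the 8 fast-fibre markers (Myh4, Actn3 and Atp2a1). Of the 6 erythroid markers 4 were called in the opposite direction, with a sum of 746 to 1945 CPM in MC, 1188 to 2280.3 in MCE, 1755 to 6393 in FC and 1052 to 3028 in FCE. Within groups the deviations of Phkg1 had r = -0.01 with the mitochondrial share and 0.28 with the fast-fibre markers. Phkg1 kept its calls with the fibre-marker covariates, and the part of the mitochondrial share was not tested.

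Among labelled mice Phkg1 had 136, 148 and 179.8 CPM in MH, 119, 123 and 151 in MHE, 99.02, 104 and 138 in FH, and 124, 135 and 163 in FHE. The females again shifted upward with some overlap (0.33, SE 0.070, adjusted p = 0.00236), a call lost when the compared groups alone were fitted (adjusted p = 0.0681). The males had a log2 fold change of -0.24 (95% interval -0.38 to -0.10, adjusted p = 0.156), which did not pass. The female wheel change minus the male one was 0.73 in controls (SE 0.098, adjusted p = 1.77e-06) and 0.58 in labelled mice (SE 0.098, adjusted p = 0.0026). Over all genes this interaction was called for 8.74% in controls and 1.35% in labelled mice. The median interaction over the 9 members was 0.27 in controls and 0.02 in labelled mice, beside -0.02 and 0.02 over all genes tested. Phkg1 kept both calls of this interaction in each of the 14 alternatives and in each of the 56 fits that left out 1 mouse.

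**Figure D2:**
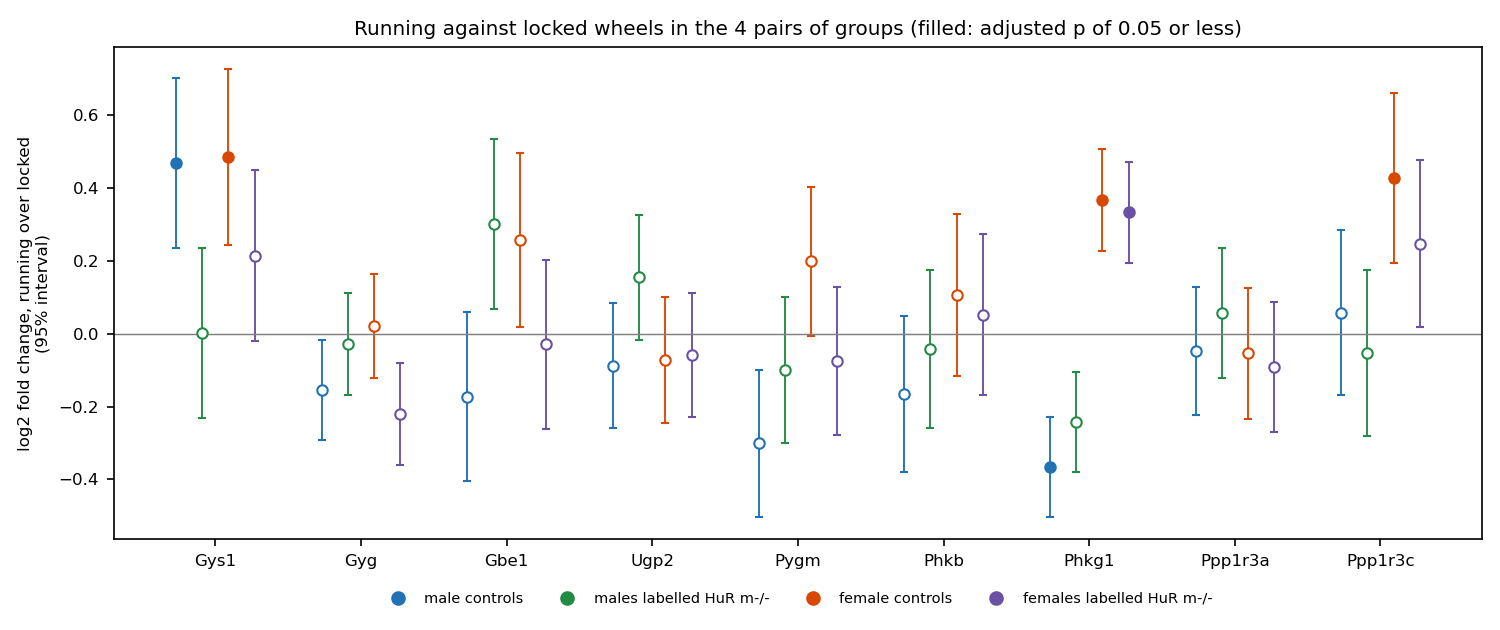
Log2 fold change of running over locked wheels (vertical axis, with 95% intervals) for each member in male controls, males labelled HuR m-/-, female controls and females labelled HuR m-/-. Filled points have an adjusted p of 0.05 or less. Phkg1 lies at -0.36 and -0.24 in the males and at 0.37 and 0.33 in the females.

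The transcript inside the span of Phkg1 had the same pattern at a lower level. Gm42790 had 9.20, 11.1 and 14.8 CPM in MC and 3.22, 4.88 and 7.88 in MCE, and 4.78, 7.17 and 8.72 in FC and 8.94, 13.04 and 19.4 in FCE. Its groups of control males did not overlap, nor did those of control females. Its log2 fold change with running was -1.16 in male controls (SE 0.21, adjusted p = 0.000703) and 0.94 in female controls (SE 0.21, adjusted p = 0.00259), and its wheel-by-sex difference was 2.10 (SE 0.30, adjusted p = 5.07e-06). Sumf2, whose exons overlap those of Phkg1, differed by -0.25 (SE 0.23, adjusted p = 0.65) and 0.35 (SE 0.28, adjusted p = 0.486) in the same comparisons. Its levels were 1.49 to 4.72 CPM over the 28 control mice, beside 114 to 187 CPM for Phkg1. Whether reads from introns entered the counts of Phkg1 was not tested.

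**Figure D3:**
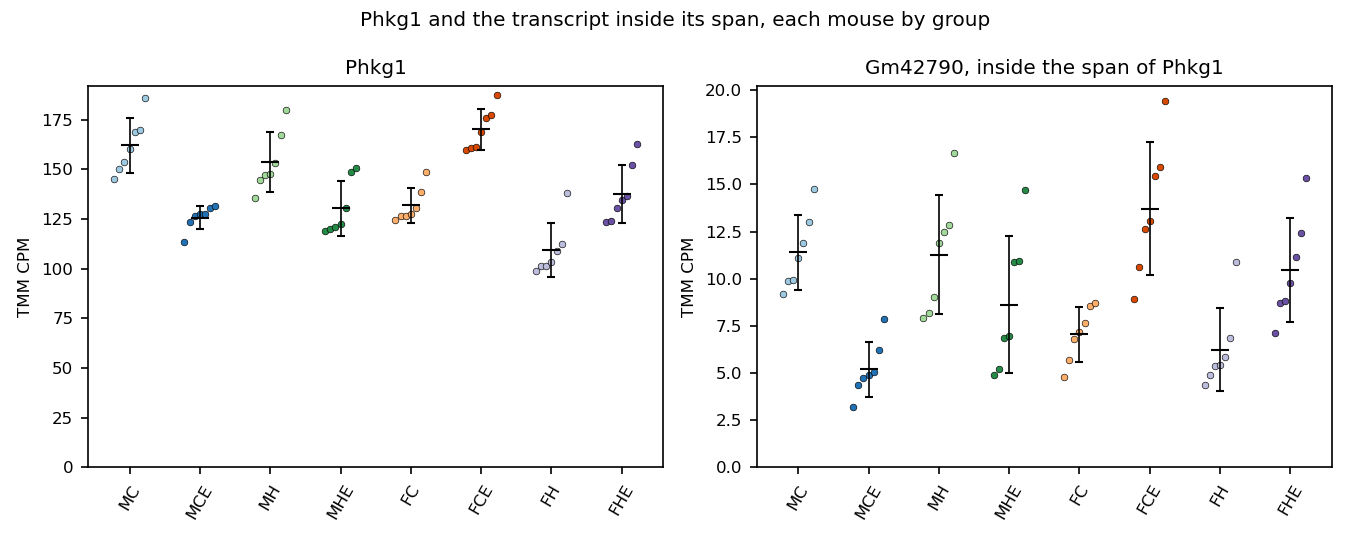
Phkg1 (left) and Gm42790 (right) in TMM-normalized CPM (linear axes from 0), each point a mouse, bars the mean and SD of 7. In both panels MCE lies below MC and FCE above FC, with no overlap.

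Ppp1r3c, the targeting subunit PTG, rose with running in female controls. It had 124, 154 and 168 CPM in FC and 163, 206 and 235 in FCE, where 1 running mouse fell within the locked range. The log2 fold change was 0.43 (SE 0.12, adjusted p = 0.015, exact permutation p = 0.00233). In male controls it had 185, 206 and 249 CPM in MC and 202, 214 and 234 in MCE, a difference of 0.06 (SE 0.11, adjusted p = 0.868). The sexes were not shown to differ in this change (0.37, SE 0.16, adjusted p = 0.153). In female controls 5 of the 10 adipocyte markers were lower with running, with a sum of 522 to 842 CPM in FC and 423 to 582 in FCE. Also called lower there were the liver markers Alb and Cyp2e1 and the leukocyte markers Ptprc, Csf1r and Lyz2. The erythroid markers Hba-a1, Hba-a2, Hbb-bs and Hbb-bt were called lower too. With the fibre levels as covariates the change of Ppp1r3c was 0.34 (adjusted p = 0.061), and with liver and adipocyte levels it was not called either.

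Muscle phosphorylase Pygm was not called in any of the 4 wheel comparisons, but its wheel change differed between the sexes in controls. Levels were 5520.0, 6999 and 8688 CPM in MC and 3768, 6142 and 7363 in MCE, against 4415, 4713 and 5419 in FC and 4714, 5498 and 6599 in FCE. The log2 fold change was -0.30 in males (SE 0.10, adjusted p = 0.0826) and 0.20 in females (SE 0.10, adjusted p = 0.227). The difference of 0.50 passed (SE 0.14, adjusted p = 0.0192). With slow- and fast-fibre marker levels as covariates it was 0.19 (adjusted p = 0.422). The deviations of Pygm within groups followed those of the fast-fibre markers (r = 0.69, rho = 0.64, 56 mice).

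In count, 2 members were called with running in male controls beside 3.24% of all genes, 3 in female controls beside 8.74%, 0 in labelled males beside 0.0419% and 1 in labelled females beside 3.85%. The median over the 9 members was -0.15, 0.20, -0.03 and -0.03 on the log2 scale in these comparisons, beside 0.02, 0.01, 0.00 and 0.02 over all genes. In labelled males 2 members, Gbe1 and Phkg1, had an unadjusted p under 0.05, and edgeR called 0 and DESeq2 1. The branching enzyme Gbe1 had 53.5, 63.2 and 69.2 CPM in MH and 65.6, 76.0 and 93.2 in MHE (log2 fold change 0.30, SE 0.12, adjusted p = 0.28, exact permutation p = 0.00233). For Ugp2, Gyg, Phkb and Ppp1r3a, the lowest adjusted p over the 4 comparisons was 0.062, for Gyg in labelled females (-0.22, SE 0.070).

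The other genes of the pathway were taken from 5 lists, of which 11 enzymes, 6 genes of phosphorylase kinase, 8 of protein phosphatase 1, 11 kinase genes and 4 of glucose entry were tested. On average over sex and label, running raised 2 of the 4 glucose entry genes and 1 of the 11 enzymes, lowered 1 of the 6 phosphorylase kinase genes, and changed 0 of the 8 phosphatase and 0 of the 11 kinase genes by the same test. The hexokinase Hk2 rose by 0.22 (SE 0.032, adjusted p = 7.24e-06), the insulin-responsive glucose transporter Slc2a4 by 0.19 (SE 0.045, adjusted p = 0.00535) and the glycogen-binding protein Stbd1 by 0.20 (SE 0.065, adjusted p = 0.0457), while Calm2, 1 of the calmodulin genes, fell by 0.16 (adjusted p = 0.011). In single pairs, the synthase kinase Gsk3b fell in male controls (-0.31, SE 0.074, adjusted p = 0.0105) and rose in female controls (0.33, SE 0.077, adjusted p = 0.00412), and its wheel-by-sex difference in controls was 0.64 (SE 0.11, adjusted p = 9.53e-05). Gsk3a and the phosphatase catalytic subunit Ppp1ca fell in male controls (-0.34 and -0.27), where Slc2a4 rose (0.38). Hk2 rose in female controls and labelled females (0.39 and 0.33), as did the AMP-activated kinase subunit Prkaa2 (0.26 and 0.34). The acid glucosidase Gaa rose in labelled females (0.29, adjusted p = 0.0493), and Calm2 fell in female controls (-0.39).

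The second question was how the sexes differed. Averaged over label and wheel, 6 of the 9 members were lower in females, beside 33% of all genes called in either direction and 17.1% called lower. All 9 log2 fold changes were below 0, with a median of -0.22 beside 0.00 over all genes. Phkb was lower by 0.40 on the log2 scale (log2 fold change -0.40, SE 0.055, adjusted p = 3.54e-08) and Pygm had -0.33 (SE 0.051, adjusted p = 3.03e-07). The others called were Gys1 (-0.29, SE 0.059), Ppp1r3c (-0.24, SE 0.057), Gyg (-0.22, SE 0.035) and Ppp1r3a (-0.19, SE 0.044). Gbe1 (-0.05, 95% interval -0.16 to 0.07), Ugp2 (-0.02, -0.11 to 0.06) and Phkg1 (-0.07, -0.14 to 0.00) did not pass.

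**Figure D4:**
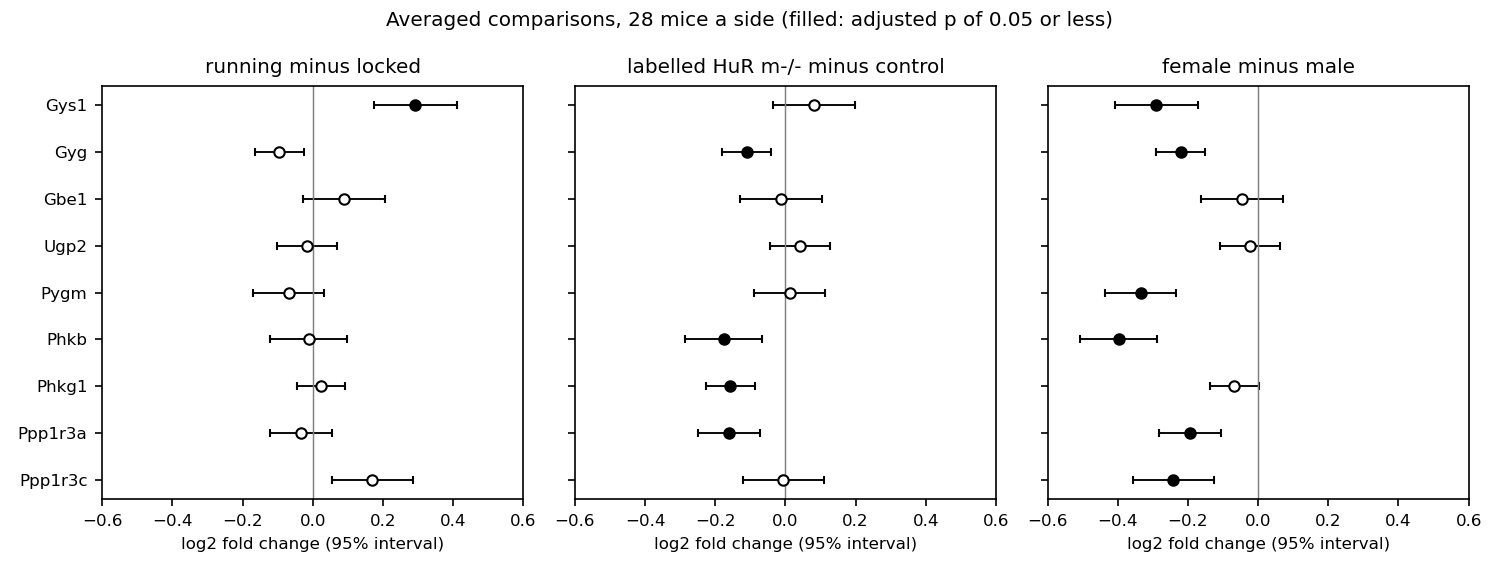
Log2 fold change with its 95% interval (horizontal axis) of each member for running minus locked, labelled HuR m-/- minus control and female minus male, each averaged over the other factors with 28 mice a side. Filled points have an adjusted p of 0.05 or less: Gys1 at 0.29 for the wheel, 4 members between -0.18 and -0.11 for the label, and 6 between -0.40 and -0.19 for sex.

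The difference was clearest in locked controls, where 6 members were called lower in females, beside 21.5% of all genes in either direction and 11.2% lower. Phkb had 230.4, 254 and 265 CPM in MC and 145, 178 and 214 in FC (-0.51, SE 0.11, adjusted p = 0.000425). Pygm, with the levels given above, had -0.52 (SE 0.10, adjusted p = 8.64e-05). Gyg had 146, 158 and 217 CPM in MC and 119, 128 and 134 in FC (-0.37, SE 0.070, adjusted p = 7.69e-05). For these 3 and for Ppp1r3c (-0.47, SE 0.12, adjusted p = 0.0021), every female was below every male, and the exact permutation p was 0.000583. Phkg1 (-0.30, SE 0.070, adjusted p = 0.00115) and Gys1 (-0.33, SE 0.12, adjusted p = 0.0423) overlapped.

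In locked labelled mice 5 members were lower in females, beside 19.3% of all genes in either direction and 10.2% lower: Phkg1 (-0.49, SE 0.070, adjusted p = 3.99e-07), Phkb (-0.47), Pygm (-0.41), Gys1 (-0.37) and Ppp1r3c (-0.35). Without FH 30 the count was 3, with Gys1 and Ppp1r3c no longer called, and with liver and adipocyte marker levels as covariates it was 1, Phkg1. Phkb had 173, 210.3 and 319.7 CPM in MH and 116, 163 and 235 in FH. Gyg had 125, 139.8 and 165 CPM in MH and 124, 134 and 143 in FH, a log2 fold change of -0.07 (95% interval -0.21 to 0.07). The difference of the label effect on Gyg between the sexes was not shown (0.30, SE 0.099, adjusted p = 0.279).

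In running controls 1 member was called for sex, Phkg1, which was higher in females (0.44, SE 0.069, adjusted p = 6.26e-06) with no overlap between the 7 and 7 mice, beside 7.65% of all genes. In running labelled mice 3 were lower in females, Pygm (-0.38, SE 0.10, adjusted p = 0.0127), Phkb (-0.38, SE 0.11, adjusted p = 0.0266) and Gyg (-0.26, SE 0.070, adjusted p = 0.0147), beside 5.57% in either direction and 3.26% lower. Pygm had 5296, 6352 and 8157 CPM in MHE and 3902, 4924 and 5397 in FHE. All 3 calls were lost without MHE 4, where 0 members were called. Phkg1 had 119 to 151 CPM in MHE and 124 to 163 in FHE and was not called there (0.08, 95% interval -0.06 to 0.22).

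Markers of fibre type, fat and blood moved with sex. All 7 slow-fibre markers were higher in females on average, with a median log2 fold change of 0.66, and 5 of the 8 fast-fibre markers were lower. Their summed level was 869 to 1189 CPM in MC and 1179 to 1717 in FC for the slow-fibre list, and 80355.3 to 100546 in MC and 70138.3 to 84897.8 in FC for the fast-fibre list. Of the 10 adipocyte markers 8 were higher in females, and their sum was 368 to 568 CPM in MC and 522 to 842 in FC. Of the erythroid markers 5 of 6 were higher in females on average and 5 of 6 in locked controls, with sums in MC and FC given above, and of the leukocyte markers 3 of 6 and 5 of 6, with a sum of 30.7 to 63.6 CPM in MC and 68.2 to 163 in FC. The part of the blood markers was not tested. With the slow- and fast-fibre levels as covariates 1 member was called lower in females on average, Ppp1r3c, and with the liver and adipocyte levels as covariates 0 were. With the fibre levels Phkb had -0.07 (adjusted p = 0.607) and Pygm -0.09 (adjusted p = 0.389). These covariates differ between the sexes, so their part and that of sex cannot be told apart.

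Other genes of the pathway also differed by sex. The acid glucosidase Gaa was lower in females by the average (-0.28, SE 0.043, adjusted p = 6.35e-07), as were the laforin gene Epm2a (-0.24) and the phosphoglucomutase Pgm1 (-0.24), whereas the liver and brain phosphorylases Pygl (0.60) and Pygb (0.25), Stbd1 (0.53) and Epm2aip1 (0.12) were higher. Of the 6 other genes of phosphorylase kinase, the muscle alpha subunit Phka1 (-0.46, SE 0.060, adjusted p = 8.16e-09) and Calm3 (-0.36) were lower and 0 were higher. The phosphatase 1 inhibitor Ppp1r1a (0.72, SE 0.058, adjusted p = 1.35e-15) and the targeting subunit Ppp1r3d (0.79) were higher. Beside the 33% and 17.1% of all genes given above, 6 of 11 kinase genes were lower (Prkag3 -0.53, Prkab2 -0.38, Prkacb -0.36, Gsk3b -0.25, Prkaa2 -0.24 and Prkaca -0.16) and 1 higher (Prkaa1 0.18). Hk2 (-0.36) and Slc2a4 (-0.19) were lower. Prkab2 was also the gene that followed Phkb most closely between mice of a group, as given below.

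The third question was how mice labelled HuR m-/- differed from controls. Averaged over sex and wheel, 4 members were lower in labelled mice, beside 11.8% of all genes called in either direction and 7.41% called lower. They were Phkb (-0.18, SE 0.055, adjusted p = 0.0249), Ppp1r3a (-0.16, SE 0.044, adjusted p = 0.0112), Phkg1 (-0.16, SE 0.035, adjusted p = 0.00125) and Gyg (-0.11, SE 0.035, adjusted p = 0.0274). Those lower thus included both members of phosphorylase kinase and the muscle targeting subunit. The lower values of Phkg1 lay mainly in females, a difference between the sexes that was not called. Its mean log2 CPM was 7.34 in MC, 7.26 in MH, 6.97 in MCE and 7.02 in MHE. In females it was 7.04 in FC, 6.77 in FH, 7.41 in FCE and 7.10 in FHE. The others, Gys1 (0.08, 95% interval -0.04 to 0.20), Pygm (0.01, -0.09 to 0.11), Ugp2 (0.04, -0.04 to 0.13), Gbe1 (-0.01, -0.13 to 0.10) and Ppp1r3c (-0.01, -0.12 to 0.11) did not pass. The median over the 9 members was -0.01 beside 0.01 over all genes.

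None of the 9 was called in any single comparison of label by voom and limma, beside 1.15% of all genes in locked males, 0.384% in locked females, 2.63% in running males and 0% in running females. At an unadjusted p under 0.05 there were 4 (Gys1, Gyg, Gbe1 and Ppp1r3a), 2 (Gys1 and Phkg1), 0 and 3 (Gyg, Phkb and Phkg1). The edgeR quasi-likelihood test called 0 in each, and DESeq2 called 0, 1, 0 and 1. Ppp1r3a had 262, 268 and 300.3 CPM in MC and 205, 213 and 264 in MH (-0.24, SE 0.089, adjusted p = 0.159). In females it had 206, 234 and 276 CPM in FC and 167, 223 and 277 in FH (-0.11, SE 0.090, adjusted p = 0.599). The lowest adjusted p were those of Phkg1 in females, -0.28 with locked wheels (SE 0.070, adjusted p = 0.053, exact permutation p = 0.0035) and -0.31 with running wheels (SE 0.069, adjusted p = 0.084, exact permutation p = 0.00233), and of Gyg in locked males (-0.23, SE 0.069, adjusted p = 0.0793).

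Slow-fibre markers moved with the label too. All 7 were higher in labelled mice on average, with a median log2 fold change of 0.55, and their summed level was 892 CPM in the median MC mouse and 1322 in MH, and 1436 in FC and 1963 in FH. Its range was 869 to 1189 CPM in MC and 892 to 2389 in MH, and 1179 to 1717 in FC and 1677 to 2589 in FH. With the slow- and fast-fibre levels as covariates 0 members were called for the label, and 1 gene of all those tested was. Without MH 9, MH 24, FC 15 and FH 19 the average called 1 member, Phkg1.

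Other pathway genes called for the label on average included the phosphatase catalytic subunit Ppp1cb (-0.37, SE 0.064, adjusted p = 5.23e-05), the kinase subunit Prkab2 (-0.40, SE 0.061, adjusted p = 1.4e-05), Phka1 (-0.35, SE 0.060, adjusted p = 4.32e-05) and Gaa (-0.22), all lower, and Ppp1r3d (0.52) and Ppp1r1a (0.20), both higher. Ppp1cb was also lower in both locked pairs, with log2 fold changes of -0.50 in males and -0.51 in females (adjusted p = 0.0387 and 0.0489), and Gaa in locked males (-0.32). The alpha, beta and gamma subunits of muscle phosphorylase kinase, Phka1, Phkb and Phkg1, were each called lower in labelled mice on average. For Phkg1 this average came mainly from females, as given above.

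No member was called for a difference by label in the response to running, or for a difference between the sexes in the label effect. For wheel by label 0 members were called in males (0.0349% of all genes) and 0 in females (0% of all genes), with 3 and 1 at an unadjusted p under 0.05. For label by sex 0 were called with locked wheels (0% of all genes) and 0 with running wheels (0.014% of all genes), with 3 and 2 at an unadjusted p under 0.05. In all 4, edgeR and DESeq2 called 0. The intervals were wide, as for Gbe1, whose wheel change was 0.47 higher in labelled males than in control males (95% interval 0.14 to 0.80, adjusted p = 0.38).

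Between mice of the same group the members did not vary as 1 block. Deviations from the group means over the 56 mice had Pearson r = 0.59 (rho = 0.50) for Phkb and Ppp1r3a, 0.57 (0.59) for Phkb and Pygm, 0.43 (0.44) for Phkb and Gyg and 0.41 (0.41) for Phkb and Phkg1, so Phkb had r above 0.40 with 4 other members. Gys1 had r = 0.40 with Pygm and -0.03 with Phkb. Ppp1r3a and Ppp1r3c, the alternative targeting subunits, had r = -0.30 (rho = -0.23), and Ugp2 had 0.38 with Ppp1r3c and -0.41 with Ppp1r3a. The spread of Phkb was unequal between groups, with a log2 SD of 0.067 in MC, the lowest, and 0.28 in MH and 0.37 in FH, the highest. Its r values here and below thus draw on some groups more than on others. All points share the normalization of their library, and these values are a description.

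**Figure D5:**
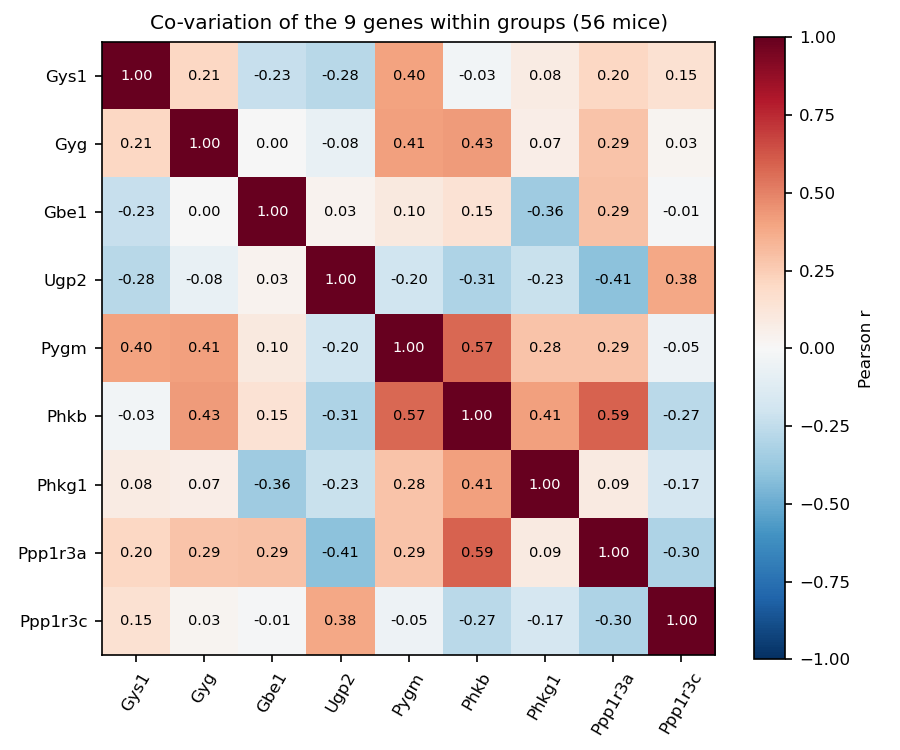
Pearson r between members (colour and number) of log2 CPM deviations from the group means over the 56 mice. Phkb has r of 0.41 to 0.59 with Pygm, Gyg, Phkg1 and Ppp1r3a, and Ppp1r3a has -0.41 with Ugp2 and -0.30 with Ppp1r3c.

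Among the 14320 other genes, those whose deviations were most like each member's were Chchd2 (r = 0.76) and Rapgef1 (0.75) for Gys1, Eef2 (0.72) and Psmd7 (0.72) for Gyg, Fhl1 (0.67) and Amot (0.60) for Gbe1, and Klhl9 (0.70) and Ppp1r27 (0.69) for Ugp2. For the breakdown genes they were Myom2 (0.87) and Gpi1 (0.84) for Pygm, Prkab2 (0.86) for Phkb, and Gm43063 (0.66) and Luc7l2 (0.63) for Phkg1. They were Nfib (0.73) and Zbtb38 (0.70) for Ppp1r3a, and Cobl (0.66) and Hsbp1 (0.65) for Ppp1r3c. Pygm and Phkb thus had close companions, which for Pygm were a sarcomere M-band protein and the glycolytic enzyme glucose phosphate isomerase, and for Phkb a subunit of AMP-activated kinase. No other member reached 0.80 with any gene. Chchd2 lies at chr5:129881156-129887470, within the annotated span of Phkg1, but its deviations had r = -0.14 with those of Phkg1. Gm42790 had r = 0.57 with Phkg1, the sixth highest of all genes.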

How the data were processed

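Whole-muscle RNA of 56 mice was sequenced. The table holds raw read counts for 15539 genes as deposited by the authors, 15503 of them with a symbol, and each gene's counts sum to at least 168. The submitters' processing notes name mm10, GRCm38, R 4.0.3 and edgeR 3.38.4. The aligner and the use of strand are not given in the sources used here. The labels describe a 3′ kit (QuantSeq) and the methods a stranded total RNA kit, and the methods give an age without mentioning wheels, so the labels were followed. Total counts of 6639782 to 21633091 per mouse set the counting precision, and mice of a group always differed by more than counting error (lowest ratio of chi-square to its degrees of freedom 3.30).

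Counts were normalized by TMM (edgeR 4.0.16), filtered by filterByExpr (14321 genes kept) and fitted by voom and limma 3.58.1 (R 4.3.3) as 8 group means over 56 mice, with Benjamini-Hochberg adjustment over all genes tested and a threshold of 0.05. Every adjusted p in the text comes from such a fit. Of 21 contrasts, 12 compared a pair of groups, 3 were averages and 6 interactions. Pairs were also compared by two-sided exact permutation of log2 CPM over 3432 splits. CPM on the log2 scale used a prior count of 2. Deviations from group means were used for correlations. DESeq2 1.42.0 and edgeR's quasi-likelihood test were alternatives, beside other normalizations, filters, weights, marker covariates and leaving out each mouse. Named genes were the 9 members, the called genes of the pathway lists and, for each member, the 2 genes most like it by r. Results that need 1 further gene are not reported here. Members and lists were chosen with earlier results of these data known. In simulated data for running in female controls (14321 genes), 7.46% of genes changed 1.25-fold, 49.3% at 1.5-fold and 66.7% at 2-fold were recovered. The changed genes (67, 67 and 66) were drawn from all genes, and 88 genes were called, beside 1251 in the data. These shares therefore do not give the power for the 9 members. Replicates are separate mice.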

Additional observations from a re-analysis of the deposited data

Results flagged for a closer look

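The wheel change differed between the sexes, by the interaction term, for Phkg1 in controls (0.73 on the log2 scale) and in labelled mice (0.58), and for Pygm in controls (0.50).

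In 9 of the 144 ends of a group (the highest and lowest mouse of 9 members in 8 groups), a mouse stood apart from the other 6, with a gap to its neighbour on the log2 CPM scale that, as a share of the group's range, passed Dixon's 95% critical value. Chance flags about 1 in 20 groups, and the 9 flags fell in 9 of the 72 groups tested (9 members in 8 groups). Above the rest of MC lay mouse 20 for Gyg (gap 0.636 of the range, 216.7 CPM with the next at 168.7) and for Ugp2 (0.603, 632.6 and 538.1), and mouse 17 for Ppp1r3a (0.677, 300.3 and 273.9). Phkg1 was high in FH 13 (0.619, 138.2 and 112.4). Below the rest of their groups lay MC 19 for Phkb (0.621, 230.4 and 251.1), MH 12 for Ugp2 (0.604, 375 and 467.6), MCE 25 for Phkg1 (0.5681, 113.7 and 123.4), FHE 8 for Pygm (0.613, 3902 and 4760) and FHE 10 for Gbe1 (0.616, 55.48 and 66.48). MC 20 was the 1 mouse set apart for more than 1 member.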

How the results depend on the processing

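Over 14 alternatives, 2482 of 2619 values of members kept their side of the threshold and were not counted as reversed. Of the rest, 37 gained a call, 65 lost it and 35 were counted as reversed. Changes of sign between uncalled values that were small beside the SE were not counted as reversals, so the 2482 can include some. The calls of Phkg1 for running in male and in female controls, and for wheel by sex in both, held in all 14 alternatives. The cause of the changes below was not tested.

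With slow- and fast-fibre markers as covariates (chosen after seeing the data), called members numbered 1 for running in female controls, 1 for sex in locked controls, 2 in locked labelled and 0 in running labelled mice, and, for averages, 2 for the wheel, 0 for the label and 1 for sex, with 1 for wheel by sex in controls. With liver and adipocyte markers they numbered 1 for running in female controls, 2 in labelled females, 1, 1 and 0 for sex in locked controls, locked labelled and running labelled mice, 2, 2 and 0 for the averages of wheel, label and sex, and 1 for wheel by sex in controls. With the Gm42418 share (chosen after seeing the data) they numbered 1 for running in male controls, 1 for the label in locked females, 3 and 0 for sex in locked and running labelled mice, and 2 for the averages of wheel and of sex. Without MH 9, MH 24, FC 15 and FH 19, also chosen afterwards, 1 was called for the label average. DESeq2 called 1 for running in labelled males, 2 in labelled females, 1 for the label in locked and 1 in running females, and 2 for the wheel average, as did edgeR. Upper-quartile normalization gave 2 for running in labelled females. At least 10 counts in every mouse gave 2 there, 1 for the label in locked females and 2 for the wheel average. Fitting the compared groups alone gave 0 for running in labelled females (Phkg1 adjusted p = 0.0681), 1 for the label in running females and 2 for sex in running controls. Sample quality weights gave 1 for the label in locked males, 1 in locked and 1 in running females, and 4 for sex in running controls. DESeq2 size factors in voom, limma trend and no filter each gave 1 for the label in locked females.

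Values counted as reversed were uncalled in those fits. With fibre markers they were, for running, Phkb 0.017 in male controls, Gyg 0.075, Pygm 0.10 and Phkb 0.14 in labelled males, and on average Pygm 0.0034 and Phkb 0.069. For the label they were Ppp1r3c -0.17 in locked males, Ugp2 -0.019, Ppp1r3a 0.012 and Ppp1r3c -0.030 in locked females, Phkb 0.048 in running males, Gys1 0.10, Pygm 0.024 and Phkb 0.019 in running females, and Ugp2 -0.055 on average. For sex they were Ppp1r3a 0.027 in locked controls, Gyg 0.15, Ugp2 -0.017 and Ppp1r3a 0.13 in locked labelled mice, and Phkg1 0.012 and Ppp1r3a 0.0077 on average. For wheel by sex in controls they were Gys1 -0.20 and Phkb -0.0026. With liver and adipocyte markers they were Gyg -0.093 and Phkb -0.084 for running in female controls, and for sex Gyg 0.12 and Ppp1r3a 0.038 in locked labelled mice and Gbe1 0.023 on average. With the Gm42418 share they were Ugp2 0.037 for running in male controls, Gys1 0.056 for the label in running males, Gys1 0.30 and Gbe1 -0.12 for sex in running controls, Gys1 0.14 for sex in running labelled mice, Ugp2 -0.16 for wheel by sex in controls and Gys1 -0.16 for label by sex among runners.

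Leaving out 1 mouse gave, for running, 1 to 3 called members in male controls (1 without MCE 10), 3 in female controls, 0 in labelled males and 1 to 2 in labelled females. For the label it gave 0 to 1 in locked males, locked females and running females and 0 in running males. For sex it gave 5 to 8 in locked controls (8 without FC 18), 3 to 5 in locked labelled mice (3 without FH 30), 1 to 2 in running controls and 0 to 3 in running labelled mice (0 without MHE 4). The averages gave 1 to 2 for the wheel, 3 to 4 for the label and 6 to 7 for sex, and wheel by sex gave 2 to 3 in controls and 1 in labelled mice. The other interactions gave 0.

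Over all genes, calls for running in male controls were 464 in the main fit and 38 with the Gm42418 share, 194 without MCE 10 and 1046 with quality weights. For running in female controls they were 1251 and 239 with liver and adipocyte markers, and 770 without FC 12. For labelled males they were 6, 2 with the compared groups alone and 226 by DESeq2, and for labelled females 551 and 161 with the compared groups alone. For the label they were 165 in locked males (8 without MC 20, 0 without the 4 libraries, 448 without MH 8), 55 in locked females (0 without FC 16, 170 without FH 30), 376 in running males (33 with fibre markers, 86 without MCE 10) and 0 in running females (71 by DESeq2). For sex they fell from 3079 to 807, from 2763 to 408 and from 797 to 240 with liver and adipocyte markers, and from 1096 to 169 with the Gm42418 share (in running controls). The averages ran from 632 to 1331 for the wheel (854), 1 to 2276 for the label (1695) and 1035 to 5086 for sex (4720), and wheel by sex from 496 to 1753 in controls (1251) and 76 to 331 in labelled mice (193).

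Replicate numbers name mice and are shared between sexes alone. Same-numbered mice deviated together with r of -0.20 to 0.18, so the numbers did not pair the samples. A replicate block (consensus correlation 0.022) changed no count of called members. For running in female controls, 7.46% of the smallest changes simulated were recovered, among genes drawn from all those tested and not the members alone. The chi-square between mice of a group was 3.30 to 46.1 times its degrees of freedom.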

Other observations

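Gm43063, an intronic transcript at chr3:103096746-103097826 on GRCm38 whose levels were most like those of Phkg1, was likewise lower in running than in locked male controls and higher in running than in locked female controls by its medians, which were 12.9 CPM in MC, 8.83 in MCE, 7.29 in FC and 21.5 in FCE. It lies on another chromosome than Phkg1. Luc7l2, a splicing factor gene and the next most like Phkg1, had r = 0.63 but rho = 0.45 over the 56 mice.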
